A study of Caenorhabditis elegans with 2 samples.

Results

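The 33 genes for proteasome subunits of Caenorhabditis elegans were examined for peaks of SEM-2-eGFP in embryos, among 19973 protein-coding genes of the nuclear chromosomes. The members are all protein-coding genes of the Ensembl annotation whose symbol is pas-, pbs-, rpn- or rpt- followed by a number. That rule uses no measured value, but it was chosen with earlier results of these data known. They divide into 14 genes of the core particle, with 7 of the alpha ring (pas) and 7 of the beta ring (pbs), and 19 genes of the regulatory particle, with 10 of its base and 9 of its lid.

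The proteasome is the protease complex that degrades proteins marked with ubiquitin. In the core particle, rings of beta subunits hold the cutting sites and outer rings of alpha subunits gate the entrance. The regulatory particle binds the ubiquitin chain, removes it and threads the substrate into the core: its base holds the Rpt ATPases, and its lid holds the deubiquitinating enzyme. In C. elegans the transcription factor SKN-1 is known to raise the expression of proteasome subunit genes when proteasome function is impaired. SEM-2 is a Sox family transcription factor.

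The study measured SEM-2 binding by ChIP-seq in 1 group, with 2 biological replicates numbered 1 and 3. The animals were whole embryos of mixed stage and mixed sex, labelled as 1 hour old and collected by egg bleaching. The strain was OP701, which carries the mutation unc-119(tm4063) together with the transgene wgIs701. That transgene supplies sem-2::TY1::EGFP::3xFLAG along with unc-119(+), so tagged SEM-2 comes from added gene copies, and the antibody was directed against GFP. The label "whole organism" means that binding in any 1 cell type cannot be told apart from binding in another, and peak lists hold no expression values with which the stage could be checked. The labels also point to a control experiment, which was not analysed here.

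The file of each replicate listed 30000 regions, background among them, and a further list of 30000 was made from both replicates (the combined list). A thresholded list held the 634 peaks that passed the analysis of reproducibility, 617 of them on nuclear chromosomes. Peaks are described by the authors' signal value and by their rank in their own list, with rank 1 for the highest signal. Signal values of different lists were not compared. A gene was counted as having a peak when a summit fell in a window around its annotated 5′ end that began 1500 bp upstream and ended 500 bp downstream. Because the long lists include background regions, the main counts of members stand beside the share of all protein-coding genes that met the same rule. Depth is unknown, since the lists hold no read counts. No test was run: there was 1 group, and genes are not replicates of a condition.

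The sequence at the combined summit is shown for rpn-7, a lid gene with a thresholded peak, and for pas-1 and pbs-1. The latter are core genes whose best peak ranked within 5000 in replicate 1 and in replicate 3. Of the 6 members that met either rule, only rpn-7, pas-1 and pbs-1 are shown. At pbs-1 the best replicate 3 peak is another one, with its summit 540 bp upstream, and the run is not from that peak. The replicate 3 peak that overlaps the combined one at pbs-1 ranked 26867. Each run is 101 bases of RefSeq WBcel235, the same assembly as ce11, centred on the combined summit and given on the strand of the proteasome gene. The rpn-7 run is chrIV:9316211-9316311, plus strand, the pas-1 run chrV:14423317-14423417, minus strand, and the pbs-1 run chrIV:1710690-1710790, minus strand. Capitals mark a match to TGTCAT or TATCAT, forms within the known SKN-1 consensus, or to ACAAAG or ACAATG, forms within the known Sox consensus, on either strand.

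rpn-7: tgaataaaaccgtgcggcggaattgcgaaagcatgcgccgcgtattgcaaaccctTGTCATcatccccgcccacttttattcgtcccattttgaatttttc

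pas-1: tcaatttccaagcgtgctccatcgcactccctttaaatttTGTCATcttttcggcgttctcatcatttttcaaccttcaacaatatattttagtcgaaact

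pbs-1: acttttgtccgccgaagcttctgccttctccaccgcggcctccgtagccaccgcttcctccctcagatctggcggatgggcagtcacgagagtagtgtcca

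A thresholded SEM-2 peak was found at few proteasome genes, while most had a summit in the combined list, which includes background regions. In the window used here both shares were above those of all genes. Deposited −log10 q-values at the members' best combined summits ran from 0.152 (rpt-3) to 1.92 (pbs-5 and rpn-7), so many of these regions may be background. In the thresholded list, 2 of 33 members had a summit in their window (6.06%), the beta ring gene pbs-5 and the lid gene rpn-7, against 2.17% of all protein-coding genes. Both summits were nearer to the 5′ end of another gene. When a summit counted only for its nearest 5′ end, 0 members had a thresholded summit, against 2.53% of all genes. In the whole combined list 22 of 33 members had a summit (66.7%), against 43.6% of all protein-coding genes. For replicate 1 the count was 26 members (78.8%) against 42.9% of all genes, and for replicate 3 it was 24 members (72.7%) against 45.7%. A summit in both replicate lists was found for 22 members (66.7%), against 28.4% of all genes. The 5 members pas-2, pas-6, pbs-6, rpn-6.1 and rpn-8 had no summit in any list. They are also the members with no summit in either replicate list (15.2%), against 39.8% of all genes.

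The share of all genes with a summit varied between chromosomes. None of the members is on X. There are 10 on chromosome I, 7 on II, 8 on III, 3 on IV and 5 on V. Of all protein-coding genes, 55.2% on chromosome I and 55.6% on III had a combined summit, against 32.8% on V. Weighted to the chromosomes of the members, the share of all genes was 48.8% for the combined list, 49.9% for replicate 1, 48.5% for replicate 3 and 33.1% for both replicates. The members' shares stood above these values too.

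**Figure D1:**
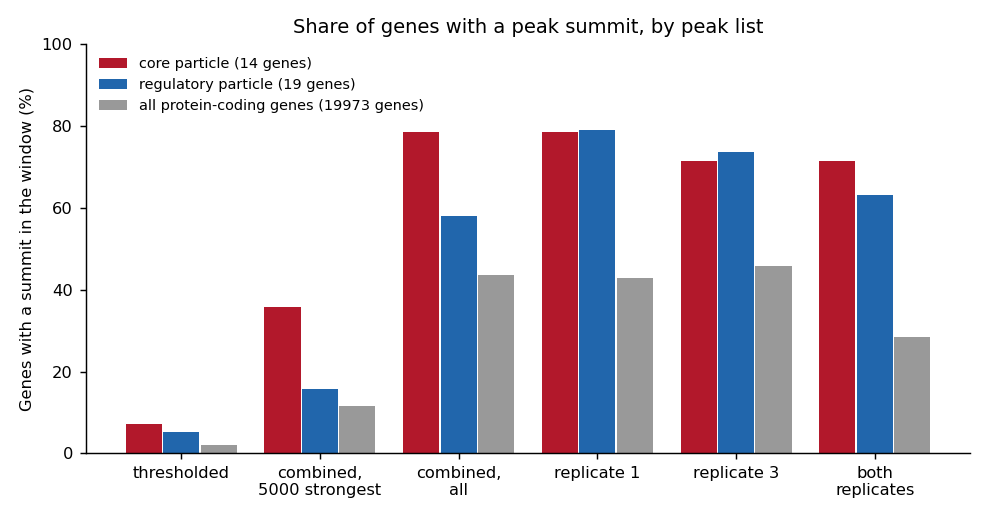
Share of genes with a peak summit in their window (percent, vertical axis) in each list, among the 5000 strongest combined peaks and in both replicate lists, for the 14 core particle genes (red), the 19 regulatory particle genes (blue) and all 19973 protein-coding genes (grey). Core and regulatory bars stand at nearly the same height in each replicate, at 78.6% and 78.9% in replicate 1, while in the combined list the core bar is higher.

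The strongest peak of the set was assigned to pbs-5 (WBGene00003951), the beta subunit that carries the chymotrypsin-like site in yeast and mammals. The peak had a signal of 496 and rank 88 in the combined list. In replicate 1 it had a signal of 348 and rank 83, and in replicate 3 a signal of 146 and rank 113. Both replicates therefore placed it among their strongest peaks, and the summits of the replicates lay 10 and 14 bp from the combined summit. The peak spans 14721527 to 14721761 on chromosome I (ce11), and its summit is 1158 bp upstream of pbs-5. It lies in an intron of K05C4.2, a gene on the same strand that ends 111 bp upstream of pbs-5, and 344 bp downstream of the 5′ end of K05C4.2, which is the nearest annotated 5′ end. No annotated non-coding RNA gene lay within 100 bp of the summit.

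The peak of rpn-7 (WBGene00004463), a scaffold subunit of the lid, came next. It had a signal of 192 and rank 395 in the combined list. In replicate 1 its signal was 154 with rank 298, and in replicate 3 its signal was 61.4 with rank 1366. The replicates thus differed more in rank here than at pbs-5, and the replicate 3 peak would not be among the 634 strongest of its own list. The peak spans 9316043 to 9316478 on chromosome IV, and its summit is 370 bp upstream of rpn-7 in intergenic sequence. The divergent gene F49C12.9 starts 416 bp from rpn-7, and its 5′ end is the nearest, 46 bp from the summit. Neither thresholded peak thus had the proteasome gene as its nearest 5′ end.

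**Figure D2:**
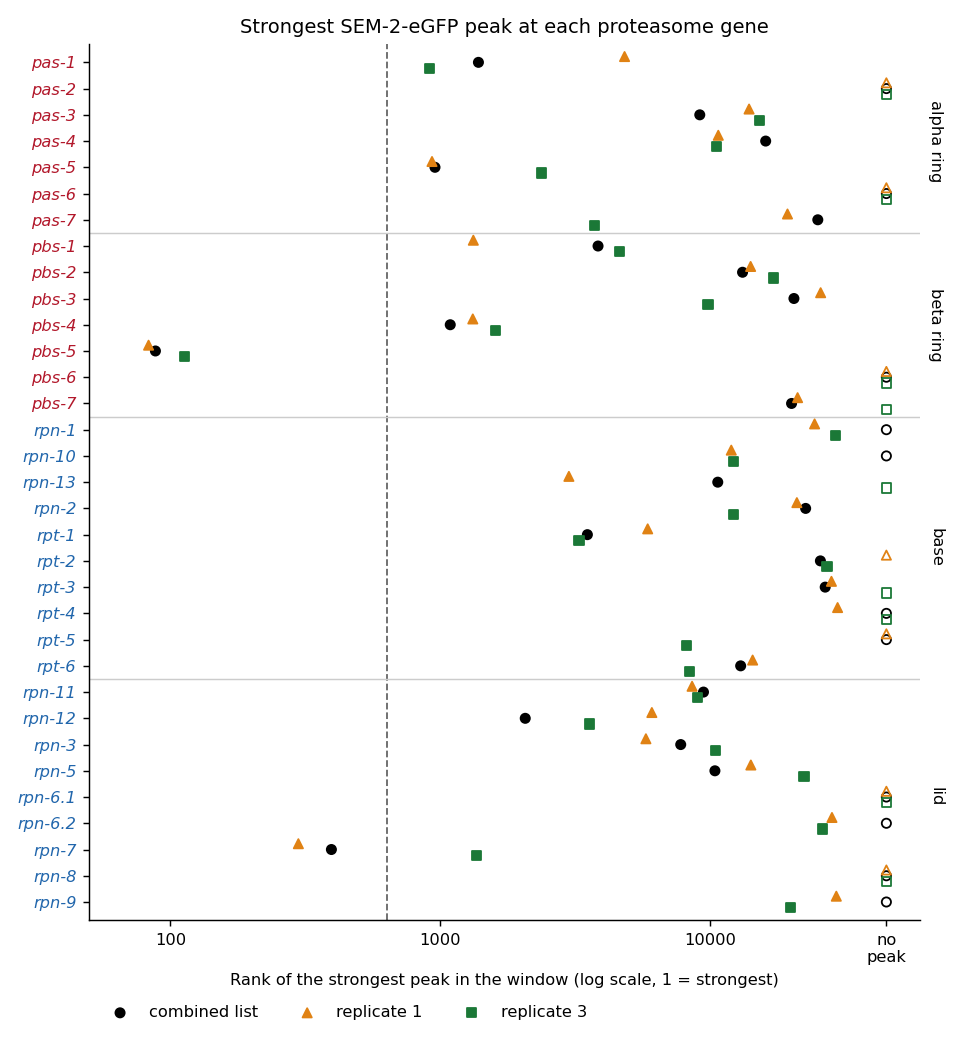
Rank of the strongest peak in the window of each of the 33 genes (horizontal, log scale, rank 1 the strongest) in the combined list (circles), replicate 1 (triangles) and replicate 3 (squares), with core genes in red and regulatory genes in blue. Open symbols at the right edge mark genes with no summit in that list, and the dashed line marks rank 634, the length of the thresholded list. Only pbs-5 and rpn-7 have a combined peak left of the line.

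Among the alpha ring genes, which form and gate the entrance of the core, 5 of 7 had a combined summit (71.4%), against 43.6% of all genes. None had a thresholded summit. The best placed was pas-5 (WBGene00003926), with 3 combined peaks of which the strongest had a signal of 134 and rank 956. In replicate 1 the best peak of pas-5 had a signal of 84.8 and rank 932, and in replicate 3 a signal of 54.3 and rank 2366. The stronger pair are peaks that overlap each other, with summits 951 and 1156 bp upstream of pas-5, and both summits lay within 100 bp of the snoRNA gene F25H2.15. The third, 94 bp upstream, had a signal of 78.8 and rank 6030. For pas-1 (WBGene00003922) the best combined peak had a signal of 118 and rank 1385. The replicates differed in their order at pas-1, with a signal of 52.1 and rank 4819 in replicate 1 and a signal of 67.5 and rank 915 in replicate 3. That summit is 749 bp upstream of pas-1 and 63 bp upstream of rpoa-12, a gene on the same strand that ends 107 bp before pas-1 begins.

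The other alpha ring genes were weak. The best combined peak of pas-3 ranked 9156 and lay in its own coding sequence, 173 bp downstream of the 5′ end. For pas-4 the rank was 16066 and for pas-7 it was 25065. Of these 3 genes the replicates differed most at pas-7, whose best peak ranked 19353 in replicate 1 and 3721 in replicate 3. These are 2 different peaks, 101 bp upstream and 495 bp downstream of the 5′ end.

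Of the beta ring genes, 6 of 7 had a combined summit (85.7%), against 43.6% of all genes. After pbs-5 the strongest was at pbs-4 (WBGene00003950), with a signal of 127 and rank 1089 in the combined list. Its best peak had a signal of 75.4 and rank 1320 in replicate 1, and a signal of 59.3 and rank 1597 in replicate 3. The pbs-4 summit lay 751 bp upstream in intergenic sequence, with pbs-4 as the nearest 5′ end and no non-coding RNA gene within 100 bp, and the replicates gave nearly the same rank. For pbs-1 (WBGene00003947), the subunit of the caspase-like site in yeast and mammals, the combined peak had a signal of 89.3 and rank 3843. In replicate 1 it had a signal of 75.3 and rank 1326. In replicate 3 the best peak at pbs-1 was another one, 540 bp upstream, with a signal of 46.4 and rank 4617, and the peak that overlapped the combined one ranked 26867. The combined summit, 995 bp upstream, lay in the coding sequence of the divergent gene K08D12.3.

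The other beta ring genes had ranks beyond 10000 in the combined list, at 13189 for pbs-2, the subunit of the trypsin-like site, 20447 for pbs-3 and 20037 for pbs-7. For pbs-2 and pbs-3 the summit was in the coding sequence of the gene itself, 376 and 458 bp downstream of the 5′ end. The pbs-7 summit was in the coding sequence of F39H11.1, and pbs-7 had no summit in replicate 3.

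The base of the regulatory particle had no thresholded peak, and 6 of its 10 genes had a combined summit. The best was at rpt-1, an ATPase gene, where the combined peak ranked 3509, with a signal of 91.5, and lay in the rpt-1 coding sequence 334 bp downstream of the 5′ end. The best peak of rpt-1 ranked 5870 in replicate 1 and 3266 in replicate 3, at different positions. The peak of rpn-13, a ubiquitin receptor, ranked 10675 in the combined list and 2997 in replicate 1, and replicate 3 had no summit in the window. The ATPase genes rpt-6, rpt-2 and rpt-3 had combined ranks of 12978, 25628 and 26698, and the scaffold gene rpn-2 had 22596. The combined list held no summit for rpt-4, rpt-5, the scaffold gene rpn-1 or the ubiquitin receptor gene rpn-10, although each had a summit in at least 1 replicate list. The best placed of these was rpt-5, at rank 8182 in replicate 3.

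In the lid, 5 of 9 genes had a combined summit (55.6%), against 43.6% of all genes. After rpn-7 came rpn-12, with a combined peak of signal 106 and rank 2065, which ranked 6083 at best in replicate 1 and 3564 in replicate 3. Its summit, 912 bp upstream, lay in the coding sequence of the divergent gene rad-23, which encodes a shuttle protein that brings ubiquitinated proteins to the proteasome. The scaffold gene rpn-3 had a combined rank of 7782 at 126 bp upstream, and the peaks that overlapped it ranked 5782 in replicate 1 and 16951 in replicate 3. The best replicate 3 peak of rpn-3 was another one, at rank 10438, 1295 bp upstream in the coding sequence of hsp-110. The rank of rpn-11, which encodes the deubiquitinating enzyme of the lid, was 9450 in the combined list, 8574 in replicate 1 and 8984 in replicate 3. The rpn-11 summit was 1385 bp upstream of the gene, with the 5′ end of K07D4.2 nearer. For rpn-5 the combined rank was 10419, and its summit lay in the coding sequence of scc-1. The paralogues rpn-6.1 and rpn-6.2 both lacked a combined summit. The gene rpn-6.2 had weak ones in replicate 1 (rank 28285) and replicate 3 (rank 26061), and rpn-9 had weak ones at ranks 29355 and 19905.

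Of the sequences given for the summits of rpn-7, pas-1 and pbs-1, the rpn-7 and pas-1 runs each held 1 match to the SKN-1 forms, which began 5 bases after the summit at rpn-7 and 10 bases before it at pas-1. No run held a Sox form. G and C made up 47.5% of the rpn-7 run, 36.6% of the pas-1 run and 61.4% of the pbs-1 run, which lies in coding sequence. Over all 32 combined summits in member windows, the Sox forms occurred within 50 bp in 4 (12.5%), against 10.5% of the 29982 nuclear combined summits. The SKN-1 forms occurred in 4 (12.5%), against 8.47%, and the share of G and C averaged 44.1% ± 8.81, against 42.7% ± 8.96 (SD over summits). In the promoters, taken as 250 bp before and 50 bp after the 5′ end, the Sox forms occurred in 16 of 33 members (48.5%) against 33.5% of all genes, and the SKN-1 forms in 15 (45.5%) against 32.3%. By particle, the Sox forms were found in 5 of 14 core and 11 of 19 regulatory promoters, and the SKN-1 forms in 5 of 14 core and 10 of 19 regulatory promoters. These counts describe letters in the windows and not binding.

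Core and regulatory particle genes were compared list by list. In the thresholded list each had 1 gene, 1 of 14 core genes (7.14%) and 1 of 19 regulatory genes (5.26%). In the combined list 11 of 14 core genes (78.6%) and 11 of 19 regulatory genes (57.9%) had a summit. The replicate lists showed no such gap, with 11 core (78.6%) and 15 regulatory genes (78.9%) in replicate 1, and 10 core (71.4%) and 14 regulatory genes (73.7%) in replicate 3. The order in the combined list also turned with the window: with 500 bp upstream and 250 bp downstream it was 2 core genes (14.3%) and 8 regulatory genes (42.1%), against 24.2% of all genes, so that the core share lay below that of all genes. With 3000 bp upstream and 1000 bp downstream it was 12 core (85.7%) and all 19 regulatory genes, against 59.1% of all genes.

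Among the stronger peaks the counts leaned to the core. Among the 5000 strongest combined peaks, 8 members had a summit (24.2%), against 11.5% of all genes, and these were 5 core (35.7%) and 3 regulatory genes (15.8%). With a rank within 5000 required in both replicates, 6 members remained (18.2%), against 4.61% of all genes: pas-1, pas-5, pbs-1, pbs-4 and pbs-5 of the core (5 of 14) and rpn-7 of the regulatory particle (1 of 19). The best combined summits of these 5 core genes lay 749 to 1158 bp upstream of the gene, and that of rpn-7 lay 370 bp upstream. None of the core ones fell in the narrower window of 500 bp upstream and 250 bp downstream. At pas-1, pbs-1 and pbs-5, as at rpn-7, the nearest 5′ end was that of another gene, and the pas-5 summit lay near a snoRNA gene. At pbs-1 the best peaks of the replicates were different ones. With a rank within 10000 required in both replicates, it was 5 core (35.7%) and 4 regulatory genes (21.1%), against 9.20% of all genes. Among genes with a summit, the median best rank in replicate 3 was 4169 for core genes and 11320 for regulatory genes, against 12520 for all genes. In the combined list the medians were 9156 for core, 10419 for regulatory and 11685 for all genes, and in replicate 1 they were 10723, 14157 and 11216.

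**Figure D3:**
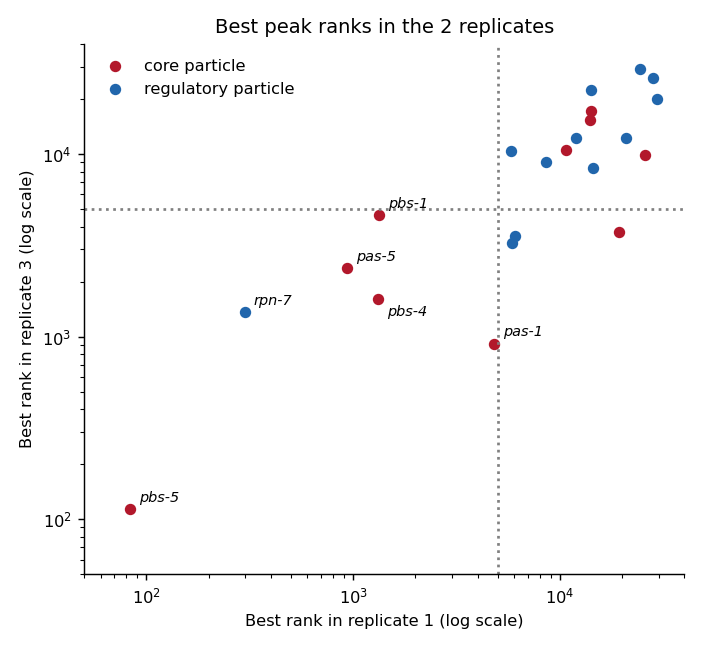
Best rank in replicate 1 (horizontal) and replicate 3 (vertical), both on log scales, for the 22 genes with a summit in both lists, with core genes in red and regulatory genes in blue. Dotted lines mark rank 5000 in each list. The 6 named genes, 5 core and 1 regulatory, lie below both lines, and pbs-5 stands alone at the lower left.

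Across the 22 members with a summit in both lists, the best ranks had a Spearman correlation of 0.797, against 0.379 across the 5668 genes of the whole annotation. The points are genes, which share both libraries, and are not independent replicates. The best peaks were often not the same peak: they overlapped by 1 bp or more in 10 of the 22 members (45.5%), 6 of 10 core and 4 of 12 regulatory genes, against 63.5% of all genes with a summit in both. Taken peak by peak, 23 of the 32 combined peaks in member windows (71.9%) overlapped a peak of both replicates, against 51.0% of the 10373 combined peaks in the window of any gene. Another 5 overlapped a peak of replicate 1 alone, 3 of replicate 3 alone, and 1, at rpt-2, of neither. At cytosolic ribosomal protein genes the share that overlapped a peak of both replicates was 73.2%, close to that of the members. The combined peaks had a median rank of 11826.5 for members, 11615 for cytosolic ribosomal protein genes and 14676 for all genes. Overlap among peaks of like rank was not tested.

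Positions in the window were counted for the summits of each particle, without a test. Several of the combined summits are overlapping peaks at 1 gene. Of the 18 combined summits at core genes, 1 (5.56%) lay within 500 bp upstream of the 5′ end, the weakest of the pas-5 peaks. At regulatory genes it was 7 of 14, against 28.2% over all genes. In replicate 3 the counts were 1 of 16 at core genes (6.25%) and 6 of 20 at regulatory genes, against 24.4% over all genes. In replicate 1 they were 5 of 23 at core genes (21.7%) and 9 of 20 at regulatory genes, against 31.4% over all genes. As shares, the gap between the particles was nearly the same in both replicates and larger in the combined list. In the combined list, summits more than 500 and up to 1000 bp upstream numbered 7 at core genes (38.9%) and 3 at regulatory genes (21.4%), against 22.1% over all genes. A further 4 core and 1 regulatory summits lay more than 1000 bp upstream, and 6 core (33.3%) and 3 regulatory summits (21.4%) lay downstream of the 5′ end, against 27.4% over all genes.

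**Figure D4:**
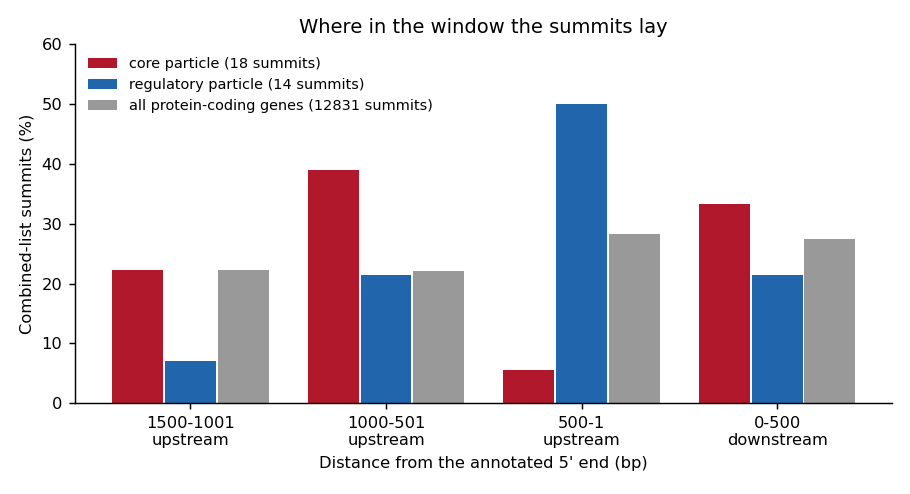
Share of combined-list summits (percent, vertical axis) in 4 parts of the window, by distance from the annotated 5′ end in bp (horizontal axis), for the 18 summits at core genes (red), the 14 at regulatory genes (blue) and the 12831 pairs of gene and summit at all protein-coding genes (grey). In the part just upstream of the 5′ end, core genes have 1 of 18 summits and regulatory genes 7 of 14.

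**Figure D5:**
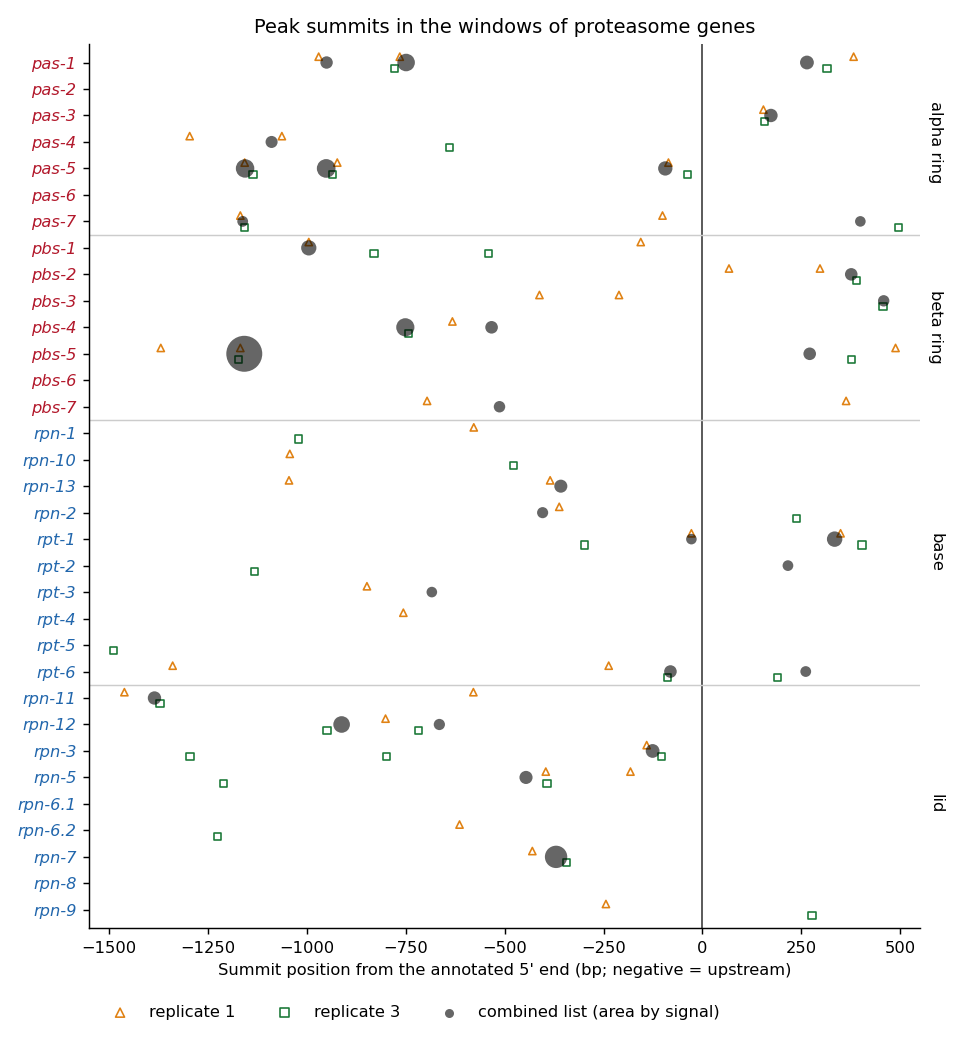
Position of every summit in the windows of the 33 genes, in bp from the annotated 5′ end (horizontal axis, negative is upstream), for the combined list (grey circles, area by signal), replicate 1 (triangles) and replicate 3 (squares). The large circles are pbs-5 at 1158 bp upstream and rpn-7 at 370 bp upstream, and in 5 rows there is no symbol.

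Many of these summits belonged as much to a neighbouring gene. Of the 32 combined summits, 19 (59.4%) had the proteasome gene as the nearest 5′ end, against 75.4% of the pairs of gene and summit over all genes. For cytosolic ribosomal protein genes the share was nearly the same as for the members, at 59.2%. For the best combined peak this held in 11 of 22 members, 5 of 11 core and 6 of 11 regulatory genes. By annotation, 16 of the 32 summits lay in coding sequence, 14 in intergenic sequence, 1 in an intron and 1 in a 3′ UTR. Of the best peaks in coding sequence, 5 of 11 were in the proteasome gene itself (pas-3, pbs-2, pbs-3, rpt-1 and rpt-2). A divergent gene starts within the window of 23 members, 13 of which had a combined summit (56.5%), against 51.5% of the 4765 genes with such a neighbour. In 8 members a gene on the same strand ends within 500 bp upstream, a spacing known from C. elegans operons, and 6 of these had a combined summit, pas-1 and pbs-5 among them, against 49.3% of the 3615 genes with such a neighbour. Operon annotation was not used.

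Other genes of the ubiquitin pathway were set beside the members. In a list of 40 genes for ubiquitin, its conjugation, CDC-48 and proteasome-associated factors, 2 had a thresholded summit (5.00%, against 2.17% of all genes) and 32 a combined summit (80.0%, against 43.6%), with 28 in replicate 1, 31 in replicate 3 and 24 in both. One of the thresholded genes was cdc-48.1, the ATPase that extracts ubiquitinated proteins, with a signal of 181 and rank 434 in the combined list, 484 in replicate 1 and 1133 in replicate 3. The cdc-48.1 summit lay 154 bp upstream in intergenic sequence, with cdc-48.1 the nearest 5′ end. The other was aip-1, which encodes a stress-induced factor that associates with the proteasome, with a signal of 162 and rank 548 in the combined list, 960 in replicate 1 and 303 in replicate 3. Its summit lay 717 bp upstream in the coding sequence of the divergent gene ddx-17. The next best were the polyubiquitin gene ubq-1 (combined rank 769, with 340 in replicate 1 and 11648 in replicate 3), the ubiquitin-conjugating enzyme gene let-70 (rank 965, with 1262 and 2499) and the CDC-48 cofactor gene ufd-3 (rank 996, with 2400 and 838). Of 6 genes of the COP9 signalosome, a complex related to the lid, 4 had a combined summit (66.7%) and none a thresholded one.

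Genes of other large complexes showed where the proteasome genes stand. Cytosolic ribosomal protein genes had a combined summit in 70 of 78 (89.7%) and a thresholded one in 12 (15.4%). Mitochondrial ribosomal protein genes had them in 48 of 70 (68.6%) and 3 (4.29%), and the CCT chaperonin genes in 7 of 8 (87.5%) and none. The share of proteasome genes, 66.7% and 6.06%, lay below that of cytosolic ribosomal protein genes in the combined and thresholded lists. Over all genes these shares were 43.6% and 2.17%. The order of the other groups changed with the list. A summit in both replicate lists was found for 66.7% of proteasome, 80.8% of cytosolic ribosomal, 52.9% of mitochondrial ribosomal and 37.5% of CCT genes, against 28.4% of all genes. For CCT genes the share was 87.5% in replicate 1 and 37.5% in replicate 3. The differences between these groups were not tested. The transgene-borne loci were not close to a member: the nearest to sem-2 was pas-3 at 114 kb, and the nearest to unc-119 was rpt-6 at 1470 kb.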

How the data were processed

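SEM-2-eGFP ChIP-seq peaks of 2 biological replicates of mixed-stage embryos were analysed from 4 peak lists on ce11, per the labels. The labels state sonication to 200 to 800 bp. Each peak carries the authors' deposited signal value, whose scaling is not given, a deposited −log10 q-value, and a summit offset. For the peak caller, the aligner and the reproducibility threshold, nothing is given in the sources used here. Whether the replicates came from separate cultures is not stated beyond the label of biological replicate.

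Summits (start plus offset, counted from 1) were set against Ensembl release 115 (WBcel235) gene records with Python 3.11.15, numpy 2.4.6 and pandas 2.3.3, and mitochondrial genes were left out. A gene was called when a summit lay in its window. Overlap of peaks required 1 bp. Window assignment was tested on simulated peaks of known position. Values in every list are given for members with a thresholded summit or a best rank within 5000 in both replicates. Of the ubiquitin pathway list, genes with a thresholded summit and the 3 next by combined rank are named. The members and lists were chosen with earlier results of these data known. Alternatives were other windows, any overlap, transcript 5′ ends, the nearest 5′ end, peaks away from RNA genes, shorter lists and each replicate alone.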

Additional observations from a re-analysis of the deposited data

How the results depend on the processing

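Counts of members depended mainly on the window and the length of the list. With a window of 500 bp upstream and 250 bp downstream, 1 member (rpn-7) had a thresholded summit (1.14% of all genes), 10 a combined summit (2 core and 8 regulatory; 30.3%, against 24.2% of all genes), 14 a replicate 1 summit (25.2% of all genes), 9 a replicate 3 summit (22.7%) and 8 one in both (11.8%). With the 10000 strongest peaks of each list these were 11 combined (6 core and 5 regulatory; 19.3% of all genes), 11 in replicate 1 (19.5%), 13 in replicate 3 (18.8%) and 9 in both (9.20%). With the 5000 strongest they were 8 (5 core and 3 regulatory; 11.5% of all genes), 7 (11.5%), 9 (10.1%) and 6 (4.61%). With 3000 bp upstream and 1000 bp downstream, 19 regulatory genes had a combined summit (59.1% of all genes). In that window rpn-8 joined the thresholded members, 3 in all (3.15% of all genes). When a summit counted only for its nearest 5′ end, up to 5000 bp away, 0 members kept a thresholded summit, against 2.53% of all genes, since neither peak has a member as its nearest 5′ end. By that rule 22 members had a combined summit (66.7%), against 54.9% of all genes. Among thresholded peaks above the median signal 1 remained, pbs-5 (1.08% of all genes). Leaving out either replicate gave 1 to 2 members at the length of the thresholded list. These were pbs-5 alone without replicate 1 (1.69% of all genes), and pbs-5 and rpn-7 without replicate 3 (2.21%). For the full lists it gave 24 to 26 members, 10 to 11 core and 14 to 15 regulatory genes. The shares of all genes there were 45.7% without replicate 1 and 42.9% without replicate 3. Counting any overlap of the peak, using any transcript's 5′ end, or leaving out peaks at tRNA, snoRNA and snRNA genes kept each count within 1.5 times its main value. No paired analysis was possible because there was 1 group. The lists hold no depth, so how far depth limits a weak or absent peak is unknown.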
